A study of Rattus norvegicus with 65 samples.

Results

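Cd9 and 5 other tetraspanin genes, Cd63, Cd81, Cd82, Cd151 and Tspan8, were followed through serially transplanted rat mammary tumors. The genes were taken by name from a list chosen by earlier results of these data. Cd9 was listed for its spread among tumor lines and Tspan8 for its fall after transplantation, so both patterns are given here as descriptions, without a test. All 6 were on the array among 10411 named genes, each with 1 probe set, and all 6 passed the filter on dim probe sets that left 8499 genes for testing. No second probe set of any of them was present to set beside the first.

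The tumors were induced with a carcinogen and then passed through 5 generations of syngeneic host rats, giving 11 lines of descent, called series 10, 13, 17, 19, 25L, 25R, 32, 33, 34, 36 and 42. Series 25L and 25R are labelled left and right of series 25, each with its own primary tumor. The labels do not say whether they share an animal, and they were counted as separate lines. One array was run per tumor, for 11 primary tumors, 11 tumors at each of transplants 1 to 4 and 10 at transplant 5, which makes 65 arrays. Series 10 is described through transplant 4, and its transplant 5 was not analysed here. The carcinogen, the strain and the invasive behaviour of each tumor are not given in the sources used here, and each line descends from a single primary tumor. Levels are on a log2 scale, after each array was scaled to a common median intensity of 162 and values below an intensity of 39.8 were set to it. That floor lies at 5.31 on the log2 scale, values at it carry no order, and a difference against it is a lower bound.

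Tetraspanins are small proteins that cross the membrane several times and gather integrins, adhesion molecules and membrane proteases into shared membrane domains. Cd9 and Cd81 bind the immunoglobulin-family partners encoded by Igsf8 and Ptgfrn, Cd151 binds the laminin-binding integrins, and Cd63 cycles through late endosomes. Together with Cd81 and Cd9, Cd63 is widely used as a marker of extracellular vesicles. Cd82 was first described as a suppressor of metastasis in prostate cancer, and Tspan8 is an epithelial tetraspanin studied in gut and pancreatic tumors.

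Promoter sequences are shown for 3 of the genes because they differ in pattern across the tumors: Cd9 was near the floor in 1 line, Cd151 was highest in that line, and Tspan8 varied from tumor to tumor. Each runs from 250 bases before to 50 bases after the gene's start in the RefSeq table of assembly GRCr8. Capitals mark GGGCGG, the core of the GC box bound by Sp family factors, read on both strands.
Cd9, chr4:159975309-159975608, minus strand: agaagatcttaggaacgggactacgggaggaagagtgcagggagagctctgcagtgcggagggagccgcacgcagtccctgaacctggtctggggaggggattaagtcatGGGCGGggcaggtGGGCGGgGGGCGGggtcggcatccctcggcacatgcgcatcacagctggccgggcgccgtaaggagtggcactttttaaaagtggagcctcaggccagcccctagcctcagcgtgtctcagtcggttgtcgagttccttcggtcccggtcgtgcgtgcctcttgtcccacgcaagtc
Cd151, chr1:205994050-205994349, plus strand: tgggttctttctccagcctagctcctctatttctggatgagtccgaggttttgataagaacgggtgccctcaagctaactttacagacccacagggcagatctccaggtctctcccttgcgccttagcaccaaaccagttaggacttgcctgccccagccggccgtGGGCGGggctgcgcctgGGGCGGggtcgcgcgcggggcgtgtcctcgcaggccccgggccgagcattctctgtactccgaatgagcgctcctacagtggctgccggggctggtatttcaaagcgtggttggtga
Tspan8, chr7:53330937-53331236, plus strand: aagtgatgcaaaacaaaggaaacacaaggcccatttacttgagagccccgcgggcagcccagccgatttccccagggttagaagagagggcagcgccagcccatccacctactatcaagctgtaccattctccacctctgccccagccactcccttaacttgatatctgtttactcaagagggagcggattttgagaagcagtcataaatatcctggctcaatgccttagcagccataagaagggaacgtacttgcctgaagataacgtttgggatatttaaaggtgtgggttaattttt
The Cd9 window held 22 CpG dinucleotides, 64.0% G and C, and 3 copies of GGGCGG. The Cd151 window held 20 CpG dinucleotides and 2 copies, and the Tspan8 window 7 CpG dinucleotides, 48.3% G and C, and no copy. Over 33469 promoter windows of the same length, the median was 7 CpG dinucleotides and 51.7% G and C, and 33.1% held GGGCGG on either strand. Cd63 and Cd81 resembled Cd9 in base composition, with 75.0% and 68.7% G and C and 2 copies of GGGCGG each. Cd82 was not in the table. The E-box CACCTG, a sequence bound by Snail and Zeb family factors, occurred once in the Cd9 window, in none of the other 4, and in 18.8% of all windows. These matches describe the letters only.

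Cd9 was low in series 42 and high everywhere else. In series 42 it read 6.18 in the primary tumor and 6.11, 5.31, 5.31, 5.73 and 5.31 in transplants 1 to 5. The deposited intensities behind those values were 65, 62.4, 2.67, 17.8, 47.1 and 1.0, so 3 of the 6 arrays lay at the floor. No array of any other series came near them: the other 59 arrays ran between 9.99 and 11.75. The mean was 5.66 ± 0.41 in series 42 (SD, n = 6 arrays) and 10.42 to 11.21 in the other 10 series, a mean difference of -5.27, or at least 38.5-fold lower in series 42. The low level was already there in the primary tumor of that line.

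**Figure D1:**
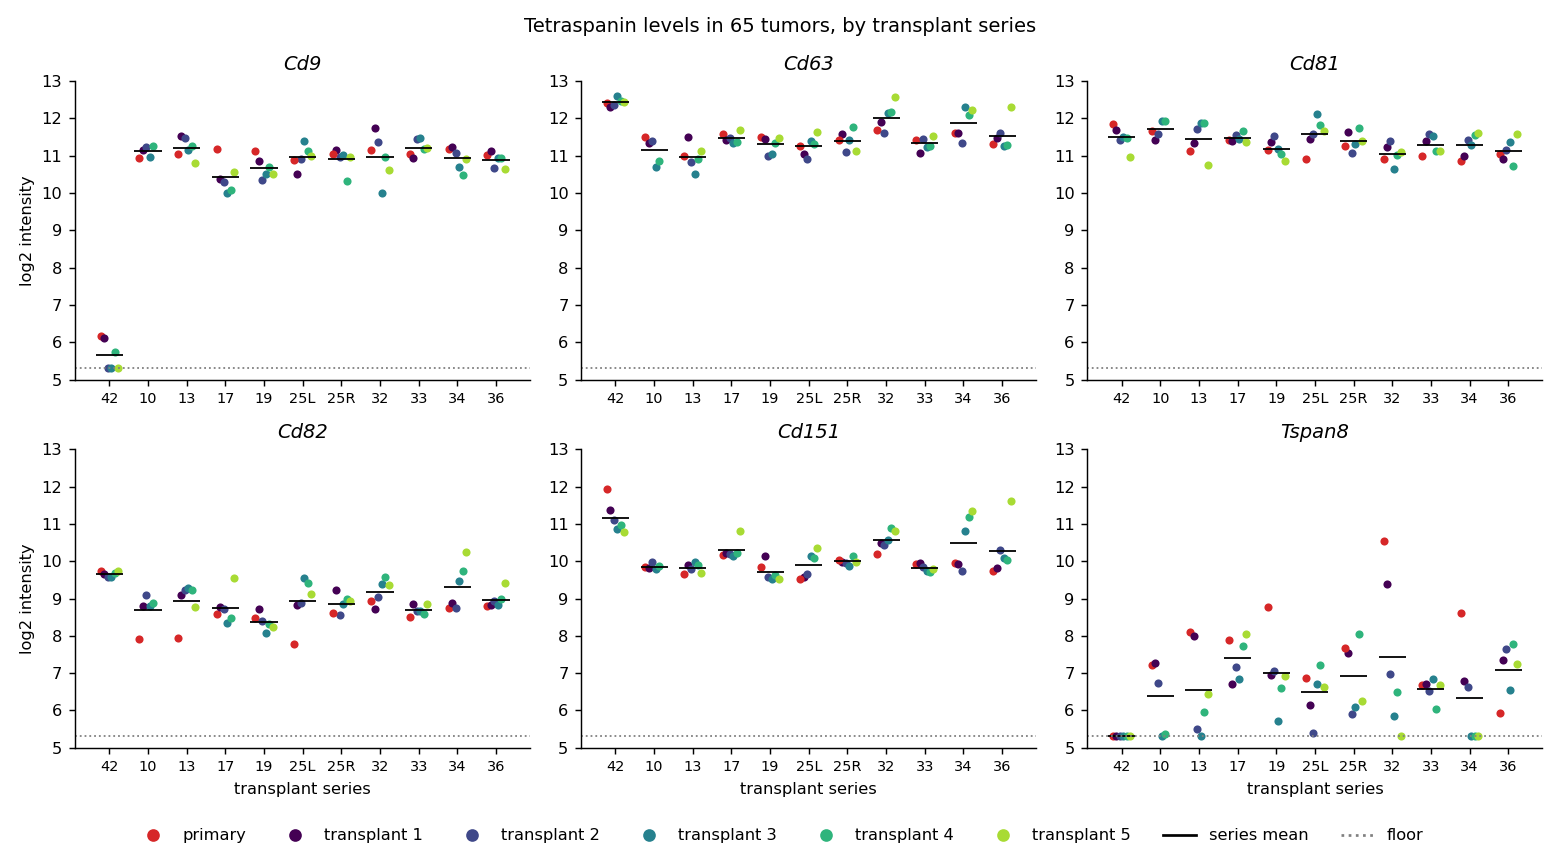
Level of each of the 6 tetraspanins (log2 intensity, vertical axis) on 65 arrays, grouped by transplant series along the horizontal axis with series 42 at the left. Points are single tumors coloured by generation, the short line is the series mean and the dotted line is the floor at 5.31. Cd9 lies at 5.31 to 6.18 in series 42 and at 9.99 to 11.75 elsewhere, while Cd63, Cd82 and Cd151 have their highest series mean in series 42.

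Among the other 10 series Cd9 varied far less. Ranked by mean, the order was 33, 13, 10, 32, 25L, 34, 25R, 36, 19 and 17, and no neighbours in that order differed by more than the larger of their SDs. Series further apart did. Cd9 was at 11.21 ± 0.21 in series 33 and 10.42 ± 0.43 in series 17 (SD, n = 6 arrays each). The primary tumors of those series held Cd9 at 11.06 ± 0.10 (SD, n = 10), with a lowest value of 10.88 and a highest of 11.19. Their transplants averaged 10.90 ± 0.41 (SD, n = 49) and ran between 9.99 and 11.75, so the spread was wider after transplantation. Series accounted for 96.0% of the variance of Cd9 over the 65 arrays and generation for 0.65%. The medians over all tested genes were 42.9% for series and 6.06% for generation.

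The neighbours of Cd9 on the chromosome did not share its low level in series 42. The 10 measured genes on each side, in RefSeq gene order, included 16 that passed the filter. Of these, 3 fell below the range of the other series means in series 42 and 4 above it, or 18.8% and 25%, against 22.8% and 31.3% of all 8499 genes. Tnfrsf1a, the TNF receptor gene next to Cd9 on one side, was at 8.76 ± 0.31 in series 42 (SD, n = 6 arrays), against means of 8.97 to 9.80 elsewhere. Vwf, the von Willebrand factor gene on the other side, was at 6.39 ± 0.22 in series 42, inside the range of 6.24 to 6.98 of the other series. The lowest difference among the 16 was -0.80, for the cyclin gene Ccnd2. Their median difference was -0.08, against 0.07 over all genes tested.

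**Figure D2:**
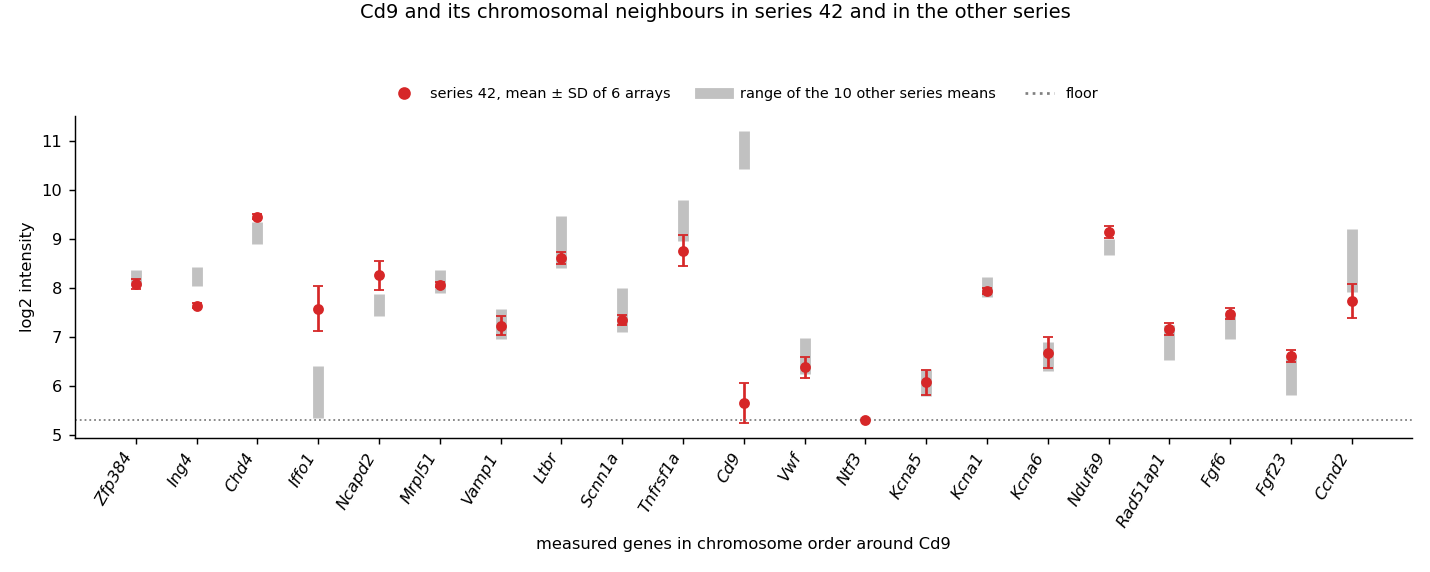
Level (log2 intensity) of Cd9 and of the 10 measured genes on each side of it in chromosome order. Red points are the mean ± SD of the 6 arrays of series 42, grey bars the range of the 10 other series means, and the dotted line the floor. The red point of Cd9 lies at 5.66, far under its grey bar of 10.42 to 11.21, and no neighbour lies more than 0.80 below the mean of the other series.

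Series 42 was also unlike the other lines in its epithelial genes. Of 8 luminal epithelial markers, the 4 genes Krt18, Krt19, Cldn3 and Cldn4 were at the floor on all 6 of its arrays, and the adhesion gene Epcam on 4 of 6. Krt8 reached at most 6.56 there and Cdh1 at most 5.51. Elf3, the remaining marker, was not at the floor on all of them. A gene at the floor still counts as 39.8 in a summed intensity. The summed intensity of 8 luminal markers was 569 to 628 in series 42 and 679 to 23707 in the other series. Summed macrophage markers were 10012 to 15045 in series 42 and 3074 to 14756 elsewhere, and summed skeletal muscle markers 1294 to 9705 in series 42 and 384 to 13800 elsewhere. Array medians before scaling were 143 to 147 in series 42 within a range of 96.1 to 176 over all arrays, and the log2 ratio of the 3′ to the 5′ control probe sets of Gapdh was 0.11 to 0.20 in series 42 within -0.18 to 0.38. The part of these measures in the Cd9 level was not tested, and series and any difference in array processing between series cannot be told apart. In bulk tumor RNA, fewer cells of a type and less RNA per cell cannot be told apart.

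Low Epcam did not always come with low Cd9. In series 34 Epcam was at 6.52, 5.83 and 5.31 in transplants 3, 4 and 5, while Cd9 was at 10.69, 10.47 and 10.92 on the same arrays. In series 32 Epcam was at 5.58 in transplant 5 and Cd9 at 10.62. On those 4 arrays the summed luminal markers were 926, 777, 679 and 797, near the 569 to 628 of series 42. Cd9 on those 4 arrays was below the primary tumors of the same lines, at 11.19 in series 34 and 11.15 in series 32, but within the range of the arrays outside series 42. The lowest Cd9 value of series 32 was 10.01 at transplant 3, where the luminal sum was 2344. Before scaling, Cd9 in that line was at an intensity of 965 at transplant 3 and 928 at transplant 5. The place of transplant 3 as the lowest, and the 10.62 at transplant 5, thus depend on the scaling.

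Of the other 5 tetraspanins, 3 had their highest mean in series 42, Cd81 lay among the other series and Tspan8 was at the floor. Over all genes tested, series 42 lay above the range of the other series means for 31.3% and below it for 22.8%. A place outside that range was thus common in this line and not particular to tetraspanins. Cd63 was at 12.43 ± 0.10 in series 42 (SD, n = 6 arrays), against series means of 10.98 to 12.02 elsewhere, a difference of 1.00. Cd151 was at 11.17 ± 0.43 in series 42, against 9.70 to 10.56, a 2.14-fold higher mean. Cd82 was at 9.66 ± 0.08 in series 42, against 8.37 to 9.31, a 1.74-fold higher mean. Of these 3, Cd63 and Cd151 stood above the next series by more than the larger SD and Cd82 did not. Cd81 was at 11.49 ± 0.30 in series 42, inside the 11.05 to 11.70 of the other series. Tspan8 was at the floor on all 6 arrays of series 42, and the other series means ran from 6.33 to 7.43. The mean over those 10 series was 6.82, so Tspan8 was at least 2.83-fold lower in series 42 than that mean.

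Levels differed among series for all 5 genes other than Cd9, by limma's moderated F test over the series terms with Benjamini-Hochberg adjustment over 8499 genes. The share of all genes past the same threshold was 83.5%, so the count is near the background. Cd63 (adjusted p = 7.6e-11) and Cd151 (adjusted p = 1.02e-07) had 69.25% and 60.02% of their variance among series. Cd82 (adjusted p = 1.35e-05), Cd81 (adjusted p = 0.0121) and Tspan8 (adjusted p = 0.00864) had 45.2%, 31.6% and 27.3%. The difference in Tspan8 rested on series 42, since its adjusted p was 0.299 without that series, and Cd81 had an adjusted p of 0.0702 with the Gapdh ratio as a covariate. Ranked by series mean, Cd63 ran 42, 32, 34, 36, 17, 25R, 33, 19, 25L, 10 and 13, and Cd151 ran 42, 32, 34, 17, 36, 25R, 25L, 10, 33, 13 and 19. Below series 42, no neighbours in either order differed by more than the larger SD, but series further apart did. Cd63 was at 12.02 ± 0.35 in series 32 and 10.98 ± 0.33 in series 13 (SD, n = 6 arrays each).

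Cd82 rose after transplantation. It averaged 9.02 ± 0.45 in the transplants (SD, n = 54) and 8.55 ± 0.55 in the primary tumors (SD, n = 11). Transplants had a lowest value of 8.07, a median of 8.90 and a highest of 10.24, and primary tumors had 7.79, 8.59 and 9.75, so the groups overlapped. Within lines the difference was 0.47 ± 0.11 (SE; limma adjusted p = 0.00524), and the transplants averaged above their own primary tumor in 9 of 11 series. The exceptions were series 19, at -0.14, and series 42, at -0.11. The widest differences were in 3 lines with dim primary tumors. In series 25L, Cd82 read 7.79 in the primary tumor and 8.82, 8.88, 9.56, 9.42 and 9.12 in transplants 1 to 5. In series 13 it read 7.94 and then 9.10, 9.24, 9.29, 9.22 and 8.76, and in series 10 it read 7.91 and then 8.80, 9.10, 8.79 and 8.87. In each of these lines all transplants lay above the primary tumor, from transplant 1 on. Summed luminal markers in transplant 1 were 15417, 18585 and 18250 in series 25L, 13 and 10, against 8278, 13198 and 10260 in their primary tumors. Summed fibroblast markers in transplant 1 were 3364, 4663 and 2050 in the same lines, against 21091, 6238 and 34181 in their primary tumors. Later arrays did not all keep that order, although Cd82 stayed above the primary tumor. The fibroblast sum was 26973 at transplant 5 of series 25L, and 7575, 8072 and 9139 at transplants 2, 4 and 5 of series 13. On the other later arrays of these 3 lines it was below the primary tumor. The luminal sum at transplant 5 of series 13 was 11755, also below its primary tumor. The part of cell content in the Cd82 values was not tested.

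By transplant 5, Cd82 averaged 9.22 ± 0.57 (SD, n = 10), against 8.55 ± 0.55 in primary tumors (SD, n = 11). The difference within lines was 0.65 ± 0.15 (SE; limma adjusted p = 0.00346), higher in 8 of 10 series. The largest was 1.48 in series 34 and the lowest -0.25 in series 19. Both comparisons share the primary tumors. The call held in both comparisons with each series left out in turn. With 1 value per series in place of 1 per array, a fit that does not treat the arrays of a line as independent, the differences were as large but missed the threshold (adjusted p = 0.101 for the transplants and 0.0742 for transplant 5). With arrays weighted by their quality they missed it too (adjusted p = 0.0551 and 0.0667).

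Tspan8, picked for its fall, was lower in the transplants in 9 of 11 series. It averaged 6.50 ± 0.94 in the transplants (SD, n = 54) and 7.60 ± 1.44 in primary tumors (SD, n = 11). Transplants had a lowest value of 5.31, a median of 6.61 and a highest of 9.40, and primary tumors had 5.31, 7.68 and 10.54. It was at the floor on 11 of 54 transplant arrays and 1 of 11 primary arrays. The fitted difference within lines was -1.11 ± 0.29 (SE) for the transplants and -1.22 ± 0.38 (SE) for transplant 5, where 6 of 10 series were lower, 3 higher and 1 at the floor on both arrays. The fall was deepest in series 32 and 34. Series 32 read 10.54 in the primary tumor and 9.40, 6.97, 5.86, 6.50 and 5.31 in transplants 1 to 5. Series 34 read 8.60, 6.80 and 6.62, and then 5.31 in transplants 3, 4 and 5. Series 36 went the other way, with 5.94 in the primary tumor and 7.35, 7.64, 6.56, 7.79 and 7.25 in transplants 1 to 5. Without series 32 the transplant 5 difference was -0.79.

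Luminal markers were also low on the later arrays of series 32 and 34. In both lines Tspan8 and the luminal sum were below the primary tumor from transplant 1 on. The summed luminal intensity in series 32 was 23707 in the primary tumor and 19200, 13195, 2344, 1301 and 797 in transplants 1 to 5. In series 34 it was 20457, then 15920, 13243, 926, 777 and 679. In series 36, where Tspan8 was higher after transplantation, it was 12899, then 14559, 10831, 10466, 7955 and 3828. Series 13 and 19 had lower Tspan8 in the transplants, at mean differences of -1.87 and -2.11, with luminal sums of 11755 to 18585 and 9475 to 16108 in their transplants and 13198 and 13714 in their primary tumors. Over all lines the sum had a median of 11804 in the transplants and 13714 in primary tumors. The part of epithelial content in the Tspan8 values was not tested.

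**Figure D3:**
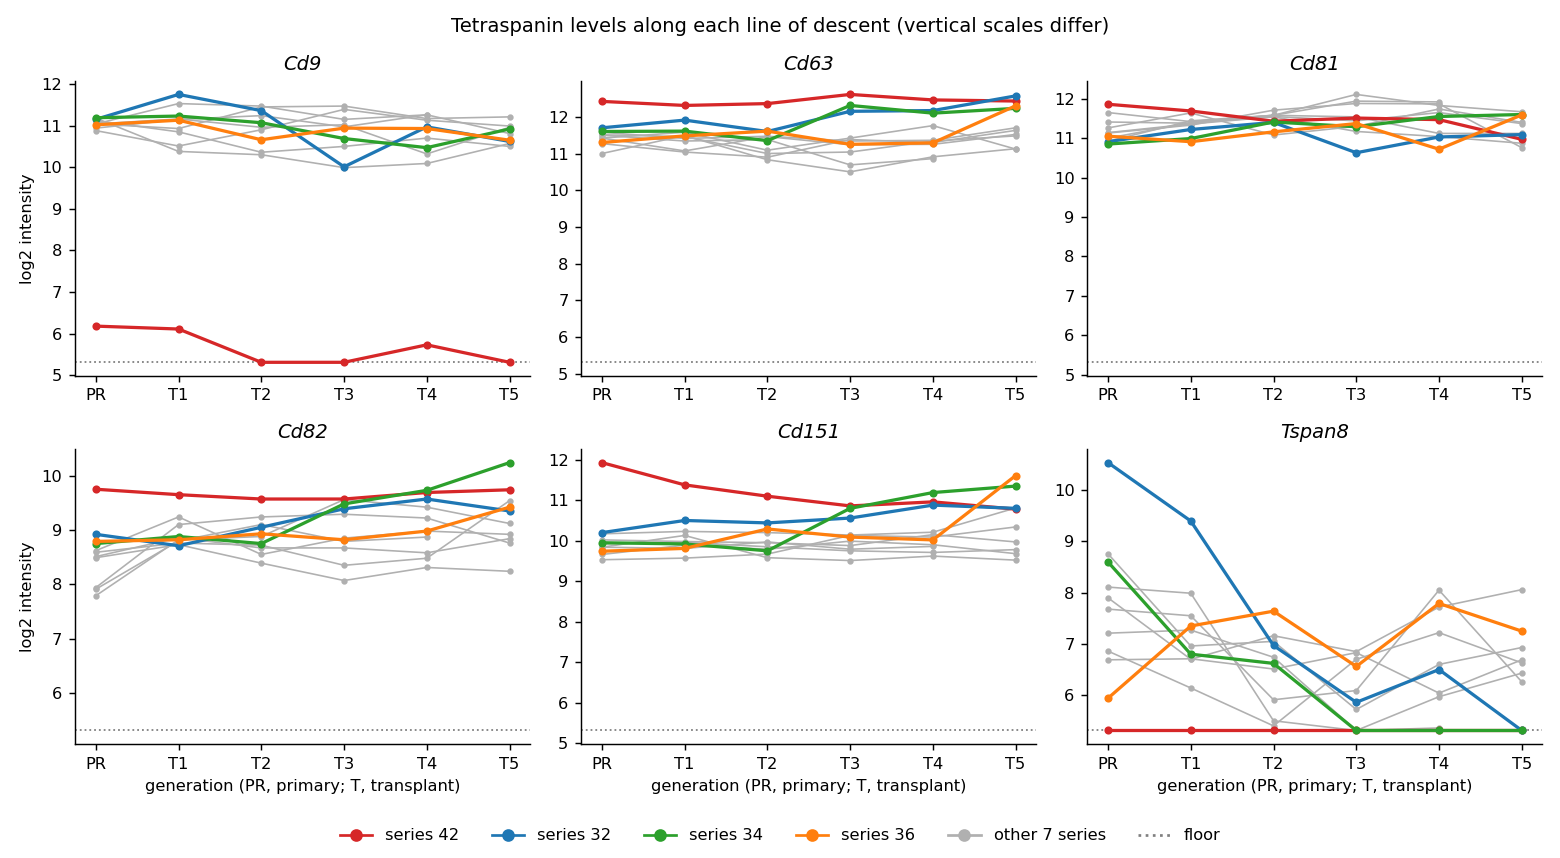
Level of each tetraspanin (log2 intensity, vertical axes that differ between panels) along each line from the primary tumor (PR) through transplants 1 to 5 (T1 to T5). Coloured lines are series 42, 32, 34 and 36, grey lines the other 7 series, and the dotted line the floor at 5.31. Tspan8 in series 32 runs down to 5.31 at T5, Cd151 in series 34 reaches 11.35 at T5, and Cd9 in series 42 stays at 6.18 or below throughout.

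Leaving Tspan8 aside, whose fall in these comparisons picked it, 1 of the other 5 genes (Cd82) passed as higher in the transplants against the primary tumors and 0 as lower. Of all tested genes, 4.44% were called higher and 5.06% lower. Cd82 alone of the 5 passed again at transplant 5, where 7.37% of genes were called higher and 6.72% lower. At an unadjusted p below 0.05, limma gave 2 of 6 higher and 1 of 6 lower in the transplants, Tspan8 included. The share of all genes at that level was not computed, here or for the unadjusted counts below. The median of the 6 differences was 0.06 for the transplants and 0.17 for transplant 5, against 0.01 and 0.03 over all genes tested. The other 4 genes missed the threshold in both comparisons. Cd9 differed by -0.20 ± 0.11 (SE; adjusted p = 0.218) for the transplants and by -0.30 ± 0.14 (SE; adjusted p = 0.139) for transplant 5, lower in 8 of 10 series at that end point. Cd81 was higher in the transplants in 10 of 11 series, but by 0.20 ± 0.09 (SE; adjusted p = 0.171). Series 42 was the exception for Cd81, at -0.44. Cd63 differed by 0.01 ± 0.09 (SE; adjusted p = 0.972) for the transplants and by 0.26 ± 0.12 (SE; adjusted p = 0.128) for transplant 5.

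**Figure D4:**
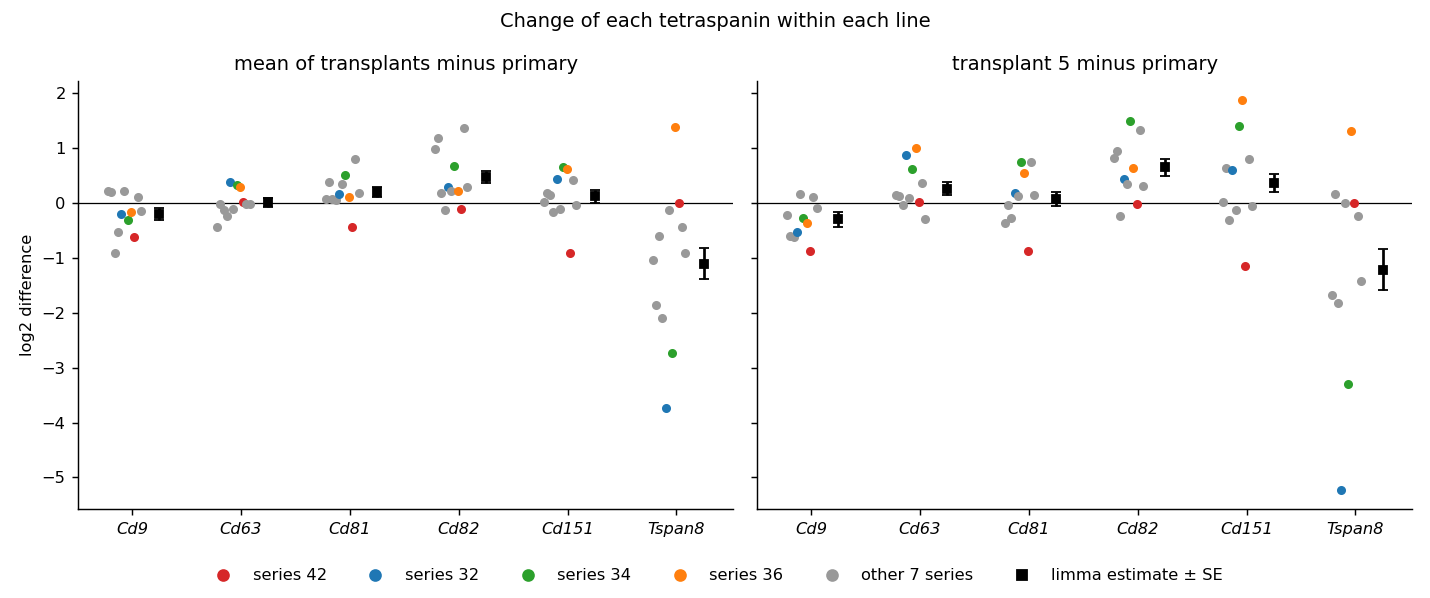
Difference from the line's own primary tumor (log2) for each tetraspanin, as the mean of the transplants (left panel) and as transplant 5 (right panel). Points are single series, coloured for series 42, 32, 34 and 36, and black squares are the limma estimate ± SE. Cd82 lies at 0.47 and 0.65, Tspan8 at -1.11 and -1.22 with single series from -5.22 to 1.38, and Cd151 at transplant 5 spreads from -1.14 to 1.86.

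Cd151 went different ways in different lines. At transplant 5 the fitted difference was 0.36 ± 0.16 (SE; adjusted p = 0.107), but single series ran from -1.14 in series 42 to 1.86 in series 36. In series 42 Cd151 read 11.93 in the primary tumor and 11.38, 11.10, 10.86, 10.96 and 10.78 in transplants 1 to 5. In series 34 it read 9.95, 9.92 and 9.75 through transplant 2, and 10.80, 11.19 and 11.35 in transplants 3 to 5. In series 36 it read 9.74, 9.81, 10.29, 10.09 and 10.02 through transplant 4 and 11.61 in transplant 5. Cd151 was thus lower in every transplant of series 42 than in its primary tumor, while series 34 and 36 reached levels at transplant 5 near those of series 42. At transplant 5 Cd151 was higher in 6 of 10 series and lower in 4. Besides series 42, the lower ones were series 19 at -0.32, series 33 at -0.14 and series 25R at -0.055. Without series 42 the transplant 5 difference was 0.52 (limma adjusted p = 0.0178). Series 42 had the lowest difference of the 10, so the fit without it is a description only.

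Over transplants 1 to 5, 0 of 6 passed limma's test of a linear slope, against 4.82% of all tested genes. At an unadjusted p below 0.05 there were 4 of 6, with no share over all genes computed at that level. Closest to the adjusted threshold were Cd63, at 0.07 per transplant (adjusted p = 0.104), and Cd151, at 0.08 per transplant (adjusted p = 0.136, and 0.0442 without series 42). Series 42 had the lowest Cd151 slope, so the fit without that series is a description only. The slope itself differed among series for 3 of 6, Cd151 (adjusted p = 0.00131), Cd82 (adjusted p = 0.0359) and Tspan8 (adjusted p = 0.0375), against 24.3% of all tested genes. For Cd151 the slope per transplant ran from -0.13 in series 42 to 0.43 in series 34 and 0.33 in series 36. For Cd82 it ran from -0.11 in series 19 to 0.37 in series 34, where the values were 8.75, 8.88, 8.75, 9.48, 9.73 and 10.24 from the primary tumor on. For Tspan8 it ran from -0.86 in series 32 to 0.33 in series 17. The Cd151 call held with each series left out (adjusted p at most 0.0168), while the Cd82 call was lost without series 34 (0.313) or 19 (0.0712). The Tspan8 call was lost without series 10, 17, 25L, 32 or 34, with adjusted p = 0.179 without series 32.

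In series 34, Cd63, Cd82 and Cd151 were high on the same arrays. Cd63 read 11.60, 11.61 and 11.35 through transplant 2 and 12.31, 12.10 and 12.23 in transplants 3 to 5. All 3 genes were higher in transplants 3 to 5 of that line than on any of its earlier arrays. Summed luminal markers were 926, 777 and 679 on those 3 arrays, and summed fibroblast markers were 31001, 28860 and 18101, against 8546 in the primary tumor. In series 32, Cd63 also had its highest value, 12.57, at transplant 5, where fibroblast markers summed to 56015, against 1293 in its primary tumor. On that array macrophage markers summed to 14756 and T cell markers to 7300, against 4957 and 875 in the primary tumor. Before scaling, Cd63 was at an intensity of 3590 there, below the 4450 of transplant 4, so its place as the highest value of the line depends on the scaling. The part of stromal and immune content in these values was not tested.

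Among 25 other tetraspanin genes, 18 were measured here and 15 passed the filter. In the transplants against primary tumors 0 of 15 passed limma's test, against 4.44% of all genes called higher and 5.06% lower. At transplant 5, 3 of 15 passed as higher and 0 as lower, against 7.37% and 6.72% of all genes. At an unadjusted p below 0.05 there were 4 of 15 in the transplants, and 2 were lower at transplant 5. No share over all genes was computed at that level, so these unadjusted counts have no background. The 3 called genes were Cd37, higher by 1.08 ± 0.35 (SE; adjusted p = 0.032), Cd53 by 0.99 ± 0.29 (SE; adjusted p = 0.0179) and Tspan5 by 0.37 ± 0.13 (SE; adjusted p = 0.0446). Cd37 had a mean of 6.37 on the log2 scale, just above the filter at 6.35. Its high transplant 5 arrays count in that mean, so its call and its place among the 3 are descriptions only. Cd37 and Cd53 are tetraspanins of white blood cells. Their highest transplant 5 values were both in series 32 (Cd37 10.14, Cd53 10.94) and series 13 (Cd37 9.32, Cd53 10.02), and both calls were lost without either series, the Cd37 call also without series 17 or 34. The Tspan5 call was lost without series 13, 17, 19, 32 or 34. Summed macrophage markers had a median of 7538 at transplant 5 and 5545 in primary tumors, with 0 of 7 tested macrophage markers called higher by limma (3 at an unadjusted p below 0.05) and 1, Cd14, called lower. Of 4 tested T cell markers, Lck was called higher, and 3 of 4 had an unadjusted p below 0.05. Summed T cell markers were 7300 in series 32 and 3485 in series 13 at transplant 5, the arrays where Cd37 and Cd53 were highest, and 868 to 1307 on the other transplant 5 arrays. Their part in Cd37 and Cd53 was not tested. The median of the 15 genes was 0.02 at transplant 5, against 0.03 over all genes. Tspan12 missed the threshold at -0.99 ± 0.36 (SE; adjusted p = 0.0563).

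In series 42, 6 of the 18 measured relatives lay above the range of the other series means and 4 below it. Over all genes tested, 31.3% lay above and 22.8% below, so these counts are near the background. Cd37, Tspan9 and Tspan7 were 1.93, 1.84 and 1.62 higher in series 42, and Tspan12 and Tspan1 lower, at -1.78 and -1.32.

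Several genes for proteins that tetraspanins bind changed with transplantation. Of 18 tested partner genes, 3 rose and 1 fell in the transplants, against 4.44% and 5.06% of all genes. At transplant 5, 3 rose and 3 fell, against 7.37% and 6.72% of all genes. Cd44, the hyaluronan receptor, rose by 0.75 ± 0.18 in the transplants (SE; adjusted p = 0.00399) and by 1.52 ± 0.23 at transplant 5 (SE; adjusted p = 6.66e-05). Its transplant 5 values included 11.78 in series 36 and 11.14 in series 34, against 9.65 and 8.52 in their primary tumors. Hbegf, a growth factor precursor whose protein binds Cd9, rose by 0.89 ± 0.21 at transplant 5 (SE; adjusted p = 0.00346), and Itgb1, the integrin beta subunit shared by many tetraspanin complexes, by 0.56 ± 0.14 (SE; adjusted p = 0.00569). Epcam fell by 1.56, the tight junction gene Cldn7 by 1.37 and the junction adhesion gene F11r by 0.98 at transplant 5, with adjusted p between 0.0167 and 0.0314. Without series 32 or 36 each of those 3 falls missed the threshold, as did Epcam without series 34 and Cldn7 and F11r without series 17. Itga3, the integrin alpha subunit that pairs with Cd151, fell by 0.34 ± 0.10 in the transplants (SE; adjusted p = 0.0255), where Hbegf rose by 0.51 (adjusted p = 0.0303) and Itgb1 by 0.34 (adjusted p = 0.0307). Those 3 calls in the transplants were each lost without any of 4 or more single series, series 32 among them. With 1 value per series, the Cd44 calls for the transplants and for transplant 5 held (adjusted p = 0.0452 and 0.0168) and the other partner calls did not. In that setting 135 and 133 of all 8499 genes passed in the 2 comparisons.

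Over transplants 1 to 5, 4 partners rose (Cd44, Hbegf, Itgb1 and Ptgfrn) and 3 fell (Epcam, Cldn7 and F11r), against 4.82% of all genes past the threshold in either direction. The widest slopes were those of Cd44 at 0.31 and Epcam at -0.41 per transplant. The slope differed among series, by limma's interaction test, for 8 of 18 partners, against 24.3% of all genes. Those 8 included Cd44 (adjusted p = 0.0166), Epcam (adjusted p = 3.41e-07), Cldn7 (adjusted p = 8.64e-05) and F11r (adjusted p = 0.000722). With 1 value per series none of these 7 slopes passed (adjusted p at least 0.447). In that setting 0 of all 8499 genes passed, so it cannot tell these genes from others. With each series left out in turn only the Cd44 slope passed throughout. Few genes of any kind passed in some of those fits: 7, 4 and 3 of 8499 without series 32, 34 and 36. The medians of the 18 partner differences were 0.01 for the transplants and 0.00 for transplant 5. In series 42 the laminin-receptor subunit gene Itgb4 was lower, at -2.81, as was its alpha partner Itga6, at -0.79, while Itga3 was 1.07 higher and Cd44 2.52 higher than the mean of the other series. Igsf8, which encodes a direct partner of Cd9 and Cd81, was at 7.67 ± 0.10 in series 42 (SD, n = 6 arrays), under the 7.77 to 8.64 of the other series. Ptgfrn, the other one, was at 9.04 ± 0.28 in series 42, inside the range of 8.47 to 9.56.

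Of 15 tested genes of exosomes and multivesicular bodies, 1 rose and 1 fell in each comparison of generations. The shares over all genes were 4.44% higher and 5.06% lower in the transplants, 7.37% and 6.72% at transplant 5, and 4.82% in both directions for the slope. Sdc4, a heparan sulfate proteoglycan core gene, fell by 0.58 in the transplants (adjusted p = 0.0455) and by 0.91 at transplant 5 (adjusted p = 0.0139). Rab27b, which encodes a small GTPase of vesicle secretion, rose by 0.38 ± 0.09 at transplant 5 (SE; adjusted p = 0.00387), and Vps4b, an ATPase gene of membrane scission, by 0.25 ± 0.08 in the transplants (SE; adjusted p = 0.0322). The Sdc4 call at transplant 5 was lost without series 32 or 34, the Rab27b call there held with each series left out, and the Sdc4 and Vps4b calls in the transplants were each lost without 5 or more single series. In series 42, Pdcd6ip, which encodes the vesicle protein Alix, was at 10.71 ± 0.11 (SD, n = 6 arrays), above the 8.06 to 9.26 of the other series. Tsg101, an ESCRT gene, was also above the other lines there, by 0.84, and Sdc4 was lower, at -2.03.

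**Figure D5:**
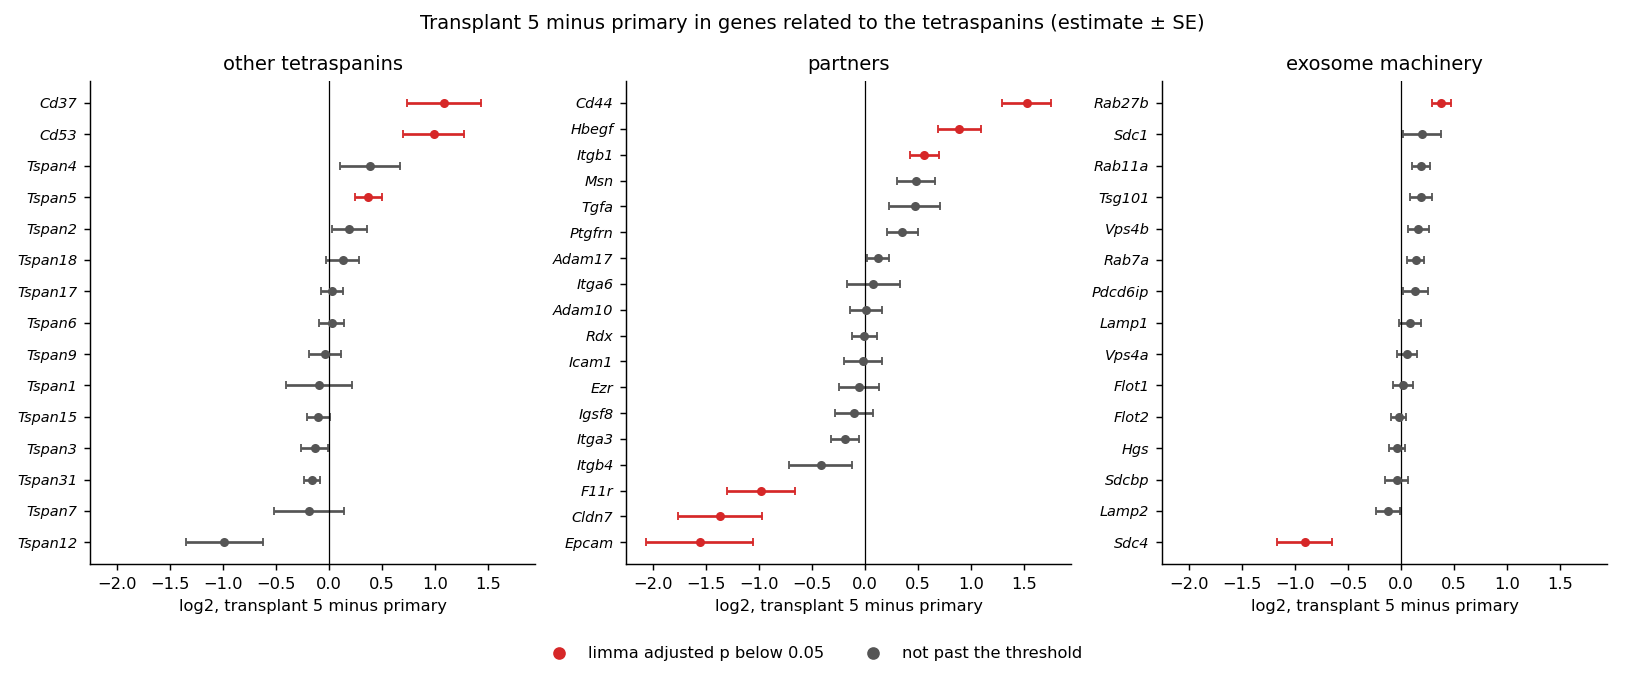
Transplant 5 minus primary tumor (log2, horizontal axis) for tested genes of 3 lists: other tetraspanins, partners of tetraspanins, and exosome machinery. Points are limma estimates and bars ± SE, with red for adjusted p below 0.05. Cd44 lies highest among partners at 1.52 and Epcam lowest at -1.56, while most genes of the vesicle list lie near 0.

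The genes most like each tetraspanin across the arrays were ranked by Pearson's r, as a description over arrays that share lines. Over 65 arrays Cd9 was most like Amotl1 (r = 0.931), Src (r = 0.912), App and Sh3d19 (r = 0.902 for both) and Sox4 (r = 0.892). The 6 low arrays of series 42 shape those values: over the 59 arrays outside it, the 5 most similar genes were others, led by Cd59b (r = 0.766) and Sphk2 (r = 0.748). Cd63 was most like Rab31 (r = 0.878) and Gnai2 (r = 0.874), Cd151 like Htra1 (r = 0.888) and Emp3 (r = 0.883), and Cd82 like Myadm (r = 0.835). Tspan8 was most like Cfi (r = 0.719), and its 5 nearest included the keratin gene Krt7 (r = 0.683). Cd81 had no close match, with r = 0.59 for Cav3 at the top.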

How the data were processed

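Gene expression was measured on 65 Affymetrix arrays from 6 µg of total RNA of frozen tumor each, per the labels. The deposited values are linear probe set intensities. The authors' probe summary and array normalization are not stated, and no detection call was used. Arrays were scaled to a common median over 15866 probe sets (57 controls left out), floored at the pooled 10th percentile and log2 transformed. The brightest probe set stood for each of 10411 genes, and the dimmest 25% (mean under 6.35 on the log2 scale) were not tested. One gene symbol was given to 12783 probe sets, several to 312 and none to 2771. The files give no counts, so the number of arrays limits the precision.

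Tests used limma 3.58.1 in R 4.3.3 (lmFit and eBayes, generation and series as factors, two-sided, Benjamini-Hochberg over 8499 genes, threshold 0.05), and slopes among series used the 54 transplant arrays. The code was tested on simulated data. Arrays of a series deviated together (mean correlation 0.376 within and -0.0373 between series, with the closest array in the same series for 50 of 65), and the pairing comes from the descent of each line. Without series as a replicate block, 0 of the 6 genes passed in either comparison with the primary tumors. Of all 8499 genes, 85 passed for the transplants and 37 for transplant 5 in that setting, so 0 of 6 is near the background. Arrays of a line descend from each other and the labels name no separate animals, so p-values measure the spread between these arrays. The genes, lists, markers and rule for named genes (called genes of a list, otherwise its widest differences; 10 neighbours each side; the 5 highest r) were chosen with earlier results of these data known. Alternatives covered the series term, scaling, floor, filter, probe set, array weights, series 25L with 25R, leaving out each series, and a Gapdh 3′ to 5′ covariate chosen after seeing the data.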

Additional observations from a re-analysis of the deposited data

Results flagged for a closer look

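At transplant 5, Cd9 in series 42 was at 5.31, the floor, with a wide gap to the other 9 tumors. Cd9 was picked for this spread among lines, so the gap is a description and no test of it is given. The slope over transplants 1 to 5 differed among series, by limma's interaction test, for Cd151 (adjusted p = 0.00131), Cd82 (adjusted p = 0.0359) and Tspan8 (adjusted p = 0.0375).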

How the results depend on the processing

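Cd82 passed against primary tumors in the transplants and at transplant 5. With Tspan8, which was picked for its fall and whose part in the counts is a description only, 2 of 6 genes were called in each. Both counts were 0 without series as a replicate block, with 1 value per series and with array weights, and 1 with the dimmer 50% of probe sets left out, where Tspan8 was not tested. Leaving out 1 series gave 1 to 3 genes at transplant 5 (1 without series 13, 19, 32 or 34, Tspan8 being lost), 0 to 1 for the slope (1, Cd151, without series 42), and 1 to 3 for slope differences (1 without series 34). Cd9 at transplant 5 passed only with quantile normalization (-0.41, adjusted p = 0.0373). The Cd9 difference of series 42 was -5.6 with the floor at the 5th percentile and -4.86 at the 20th, by construction of the floor.

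Cd63 in the transplants, at 0.01 (-0.0311 to 0.0432 with 1 series left out), turned to -0.000478 with 1 value per series, -0.0555 with quantile normalization, -0.0301 without rescaling, -0.0155 with array weights, -0.0444 with the Gapdh covariate, and was also negative without series 32, 34 (-0.0247) and 36 (-0.0222). Cd81 at transplant 5, at 0.08, turned to -0.0566 with quantile normalization, -0.0387 without rescaling and -0.04 with array weights. Neither was called under any of these, and the cause was not tested. Counts over all genes also moved: 807 genes differed in the transplants, against 85 without the block, 135 with 1 value per series and 331 with array weights. At transplant 5 the count was 1197, against 37, 133 and 307 in the same settings. For the slope it was 410, against 0, 0 and 4. The files give no signal over background, so values near the floor are bounds.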
